A study of Homo sapiens with 6 samples.

Results

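The genes of cholesterol and fatty acid synthesis were described in Hep3B cells, an established human hepatocellular carcinoma line, with and without knockdown of DAGLA, the gene of diacylglycerol lipase alpha. The members were 35 genes of the 29908 in the deposited table, taken as the rows whose Ensembl identifier maps to the chosen symbols in GENCODE release 29. They comprised 19 enzymes of sterol synthesis, 6 genes for regulators of the sterol response element binding proteins (SREBPs) and a sterol carrier, and 10 enzymes of fatty acid synthesis. The rule named genes of these routes and used no measured value, although earlier results of these data were known when they were chosen. Hep3B-KD cells (3 libraries) were infected with a lentivirus expressing shDAGLA, and Hep3B-Con cells (3 libraries) with shControl, which the description of the series calls an empty vector. The sample records give a multiplicity of infection of 5, puromycin selection and DMEM with 10% FBS for both groups, whereas the methods of the study name MEM-alpha. Both groups were therefore transduced and selected, and the knockdown was made with 1 hairpin in 1 cell line. The replicates are called biological in the description of the series and nothing more is stated of how they were separated, so the p-values measure the spread between these libraries.

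Cells make cholesterol from acetyl-CoA through mevalonate, farnesyl diphosphate, squalene and lanosterol, and DHCR7 acts at the end of this route. Fatty acids are built from the same acetyl-CoA by acetyl-CoA carboxylase and fatty acid synthase, and are then elongated and desaturated. The SREBP transcription factors turn on the genes of both routes. SCAP escorts SREBPs out of the endoplasmic reticulum for their cleavage, and the INSIG proteins hold SCAP back when sterols are plentiful. The liver is a main site of both routes.

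The targeted gene was examined first. DAGLA (ENSG00000134780, chr11:61680433-61747001 of GRCh38, plus strand) had FPKM values (reads scaled by exon length and by library total) of 9.42, 9.40 and 9.02 in the Hep3B-Con libraries and 4.62, 4.46 and 4.78 in the Hep3B-KD libraries. Every Hep3B-KD value lay below every Hep3B-Con value, with 412 to 457 reads against 864 to 953. The log2 fold change was -0.99 ± 0.04 (SE, adjusted p = 4.90e-06, limma), so about 49.8% of the control level remained. Recovered reads totalled 15861039 to 17572714 per library, and 4.64 to 5.17% of them were mitochondrial (4.64 to 4.74% in Hep3B-Con, 5.10 to 5.17% in Hep3B-KD). Libraries of a group differed by more than sampling noise (mean chi-square per gene 1.8 to 3.3 between pairs), and none appeared to be a duplicate. All 10 hepatocyte markers examined were expressed, and 9 of them were higher in Hep3B-KD, with a summed level of 4814 to 4926 FPKM in Hep3B-Con and 7338 to 7446 in Hep3B-KD. ALB and APOA2 made up most of this sum, with means of 2042 and 2135 FPKM in Hep3B-Con. The remaining marker, FGB, was lower, at 19.5 ± 0.82 FPKM (SD, n = 3) in Hep3B-Con and 9.96 ± 0.35 in Hep3B-KD (log2 fold change -0.96). Among all tested genes 36.3% were higher. Of 8 markers of other cell types 6 were in the table, with a summed level of at most 1.07 FPKM in any library. Fewer cells with a transcript and less of it per cell cannot be told apart in these bulk libraries, and the part of the mitochondrial and hepatocyte marker shifts in the member values was not tested.

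The hairpin target was taken from the supplement of the study and its match to the transcripts of GENCODE release 29 was examined, because a seed of 7 bases can also pair with other mRNAs. The 19 bases of the target matched exactly only in transcripts of DAGLA. Capitals mark the 7 bases that pair with bases 2 to 8 of the guide strand.

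shDAGLA target: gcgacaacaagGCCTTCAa

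The same 7 bases occurred in the longest annotated 3′ UTR of 7 of the 35 members (20%), and in 1628 of 11188 tested genes with a 3′ UTR of at least 50 bases (14.6%). The matches are shown because DHCR7, the member with the largest fall, holds one of them. Each line gives 10 bases on either side, read 5′ to 3′ on the mRNA strand from GENCODE release 29 transcripts (GRCh38), with the match in capitals.

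AACS, chr12:125142415-125142441, plus strand: tgggattctgGCCTTCAgagaccagga

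LSS, first site, chr21:46188803-46188829, minus strand: cttcacagtgGCCTTCAagtcacagga

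LSS, second site, chr21:46188723-46188749, minus strand: cagtatccctGCCTTCAgtcttcttta

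SC5D, chr11:121307842-121307868, plus strand: atatgcatttGCCTTCAtccacccatg

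DHCR7, chr11:71435183-71435209, minus strand: ccttgcttttGCCTTCAagggaattcc

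SREBF2, chr22:41906470-41906496, plus strand: gggaccagggGCCTTCAgcatggcttc

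STARD4, chr5:111497302-111497328, minus strand: agtctctagaGCCTTCAttgcttgata

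ACACA, chr17:37085081-37085107, minus strand: tcacaaaacaGCCTTCActtgtctcag

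Of these 7 members 5 were lower (AACS, SC5D, DHCR7, SREBF2 and ACACA) and 2 higher (LSS and STARD4) in Hep3B-KD. Among all tested genes 24.0% were lower and 36.3% higher. The call of SREBF2 was not kept in every alternative. Of the 28 members without a match 11 were higher, 8 lower and 9 did not pass the test. Over the 11188 tested genes with a 3′ UTR of at least 50 bases the median log2 fold change was -0.038 with a match and 0.105 without one. The calls of all genes with a match were not counted, so the shares of all tested genes are not from a like set. The part of the seed in the member values was not tested.

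All 35 members passed the filter of a mean of 0.5 FPKM, and were compared among 14147 tested genes with limma on log2(FPKM + 0.1). In Hep3B-KD 13 members were higher and 13 lower at an adjusted p under 0.05, and 9 did not pass. Over all tested genes 36.3% were higher, 24.0% lower and 60.3% changed in either direction. The groups did not overlap in 28 of the 35 members, against 67.2% of all tested genes. At the thresholds of the study, a 2-fold change with an unadjusted P under 0.05, 2 members were higher and 1 lower, against 6.16% and 3.07% of all tested genes. Of the 26 members that passed, 18 changed by less than 0.5 on the log2 scale and 5 by 0.5 to 1. The median log2 fold change of all tested genes was 0.11 and not 0, and the direction of small changes moved with the scaling. With the libraries centred on the median log ratio 10 members were higher and 16 lower, and with quantile normalization 14 were higher and 9 lower.

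**Figure D1:**
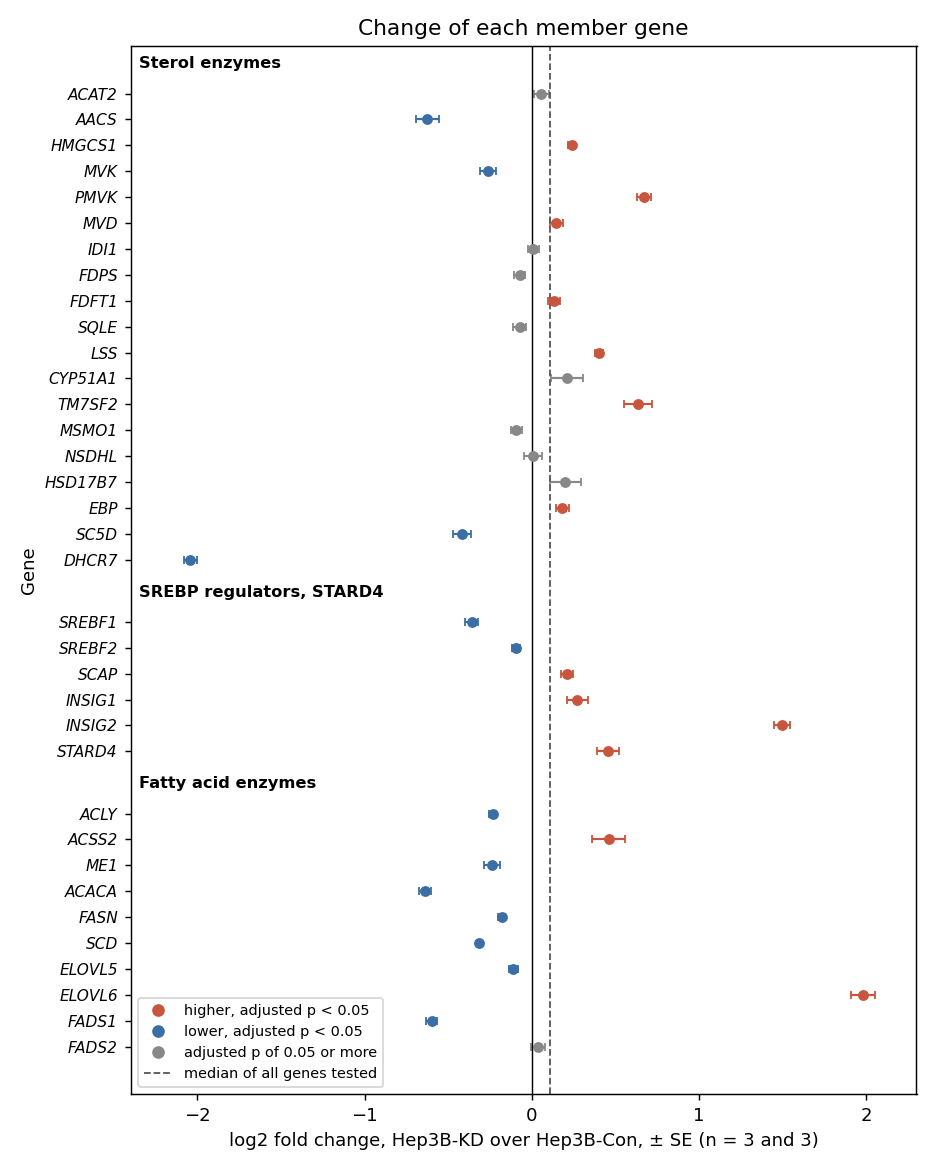
The log2 fold change of each of the 35 members, Hep3B-KD over Hep3B-Con, on log2(FPKM + 0.1); points are limma estimates from 3 and 3 libraries, bars are standard errors, colours give the call at an adjusted p under 0.05 and the dashed line is the median of all 14147 tested genes at 0.11. DHCR7 at -2.04, INSIG2 at 1.496 and ELOVL6 at 1.98 stand outside the range of -0.64 to 0.67 that holds the other members.

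DHCR7, INSIG2 and ELOVL6 were the members that passed both the adjusted p and a fold change of at least 2. They belong to the sterol enzymes, the regulators and the fatty acid enzymes, respectively.

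The sterol arm held both higher and lower enzymes. Of its 19 enzymes 7 were higher, 4 lower and 8 did not pass, and the median log2 fold change was 0.05, below the 0.11 of all tested genes. These shares, 36.8% higher and 21.05% lower, were near the 36.3% and 24.0% of all tested genes. With the libraries centred on the median log ratio the counts were 4 higher and 7 lower, because MVD, FDFT1 and EBP no longer passed as higher and FDPS, SQLE and MSMO1 passed as lower. Without Hep3B-KD replicate 3 the counts were 7 higher and 7 lower, FDPS, SQLE and MSMO1 again passing as lower. The median was 0.0157 without Hep3B-Con replicate 2. The 19 enzymes together summed to 483 ± 2.0 FPKM (SD, n = 3) in Hep3B-Con and to 473 ± 6.7 in Hep3B-KD. Without DHCR7 the sums were 418 ± 2.6 and 457 ± 6.6.

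DHCR7 (ENSG00000172893, chr11:71428193-71452868, minus strand) encodes 7-dehydrocholesterol reductase, which makes cholesterol from 7-dehydrocholesterol. Its FPKM was 66.1, 65.6 and 64.8 in Hep3B-Con and 15.9, 14.95 and 16.6 in Hep3B-KD. The Hep3B-KD libraries lay far below the Hep3B-Con libraries without overlap, with 999 to 1147 reads against 4487 to 4829. The log2 fold change was -2.04 ± 0.04 (SE, adjusted p = 2.20e-07, limma), a 4.14-fold lower mean. Of the 14147 tested genes 78 had a larger fall. DHCR7 ranked 2 of the 19 enzymes by mean FPKM in Hep3B-Con and 14 in Hep3B-KD. Over all alternatives its log2 fold change stayed between -2.13 and -1.97. No annotated exon of another gene overlapped it, and its 3′ UTR of 961 bases holds the seed match shown above.

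SC5D, the desaturase that makes 7-dehydrocholesterol and so precedes DHCR7, was also lower. Its FPKM was 10.3, 10.2 and 10.0 in Hep3B-Con and 7.02, 7.64 and 8.08 in Hep3B-KD, with a log2 fold change of -0.42 ± 0.06 (SE, adjusted p = 0.000627, limma). EBP, the isomerase before it, was slightly higher, at 32.7 ± 1.8 FPKM (SD, n = 3) in Hep3B-Con and 37.1 ± 0.58 in Hep3B-KD. Its log2 fold change of 0.18 was near the 0.11 of all tested genes. With the libraries centred on the median log ratio it was 0.0989 and did not pass (adjusted p = 0.0737, limma). Thus DHCR7 and SC5D were both lower, and EBP did not share this direction.

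Of the 8 enzymes from lanosterol to cholesterol 2 were higher, 2 lower and 4 did not pass. The higher ones were EBP and TM7SF2, a C14 sterol reductase. TM7SF2 had 15.9, 13.6 and 13.9 FPKM in Hep3B-Con and 21.1, 25.0 and 21.6 in Hep3B-KD. The groups did not overlap although the replicates spread more than for most members, and the log2 fold change was 0.63 ± 0.08 (SE, adjusted p = 0.000641, limma). LBR, which carries the same reductase activity and is not a member, was measured at 77.1 ± 2.0 FPKM in Hep3B-Con and 72.5 ± 1.4 in Hep3B-KD (log2 fold change -0.09, adjusted p = 0.0233, limma). CYP51A1, the lanosterol demethylase, had a mean of 1.35 FPKM in Hep3B-Con and 1.58 in Hep3B-KD from 80 to 96 reads per library. Other annotated genes cover 83.2% of its exon bases, and its processed pseudogenes share sequence with it, so its level is uncertain. MSMO1 and NSDHL, which act in the removal of the C4 methyl groups, had log2 fold changes of -0.09 and 0.01. HSD17B7, which acts in the same removal, had 0.20 (adjusted p = 0.106, limma), and 14.2% of its 50-base stretches also occur in other genes.

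**Figure D2:**
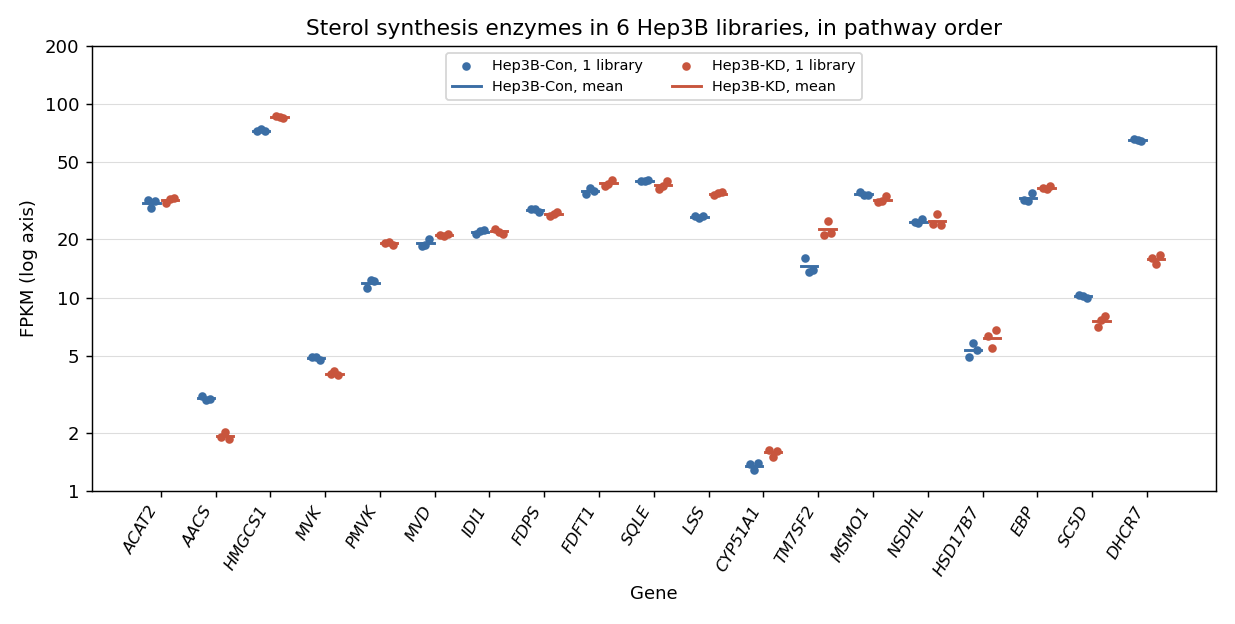
FPKM on a log axis of the 19 sterol synthesis enzymes in pathway order; each point is 1 library (3 Hep3B-Con, 3 Hep3B-KD) and each line a group mean. DHCR7 drops from about 65.5 to 15.8, PMVK, LSS and TM7SF2 lie higher in Hep3B-KD, and IDI1 and NSDHL overlap between the groups.

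Of the 3 enzymes that supply the mevalonate pathway, HMGCS1, the cytosolic HMG-CoA synthase, was higher. It was the most abundant sterol enzyme in both groups, with 72.2, 74.5 and 72.4 FPKM in Hep3B-Con and 87.1, 86.1 and 85.1 in Hep3B-KD. Every Hep3B-KD value exceeded every Hep3B-Con value, with a log2 fold change of 0.24 ± 0.02 (SE, adjusted p = 8.01e-05, limma). An overlapping transcript covers 14.95% of its exon bases. AACS, which activates acetoacetate for lipid synthesis, had 3.11, 2.97 and 2.99 FPKM in Hep3B-Con and 1.90, 2.02 and 1.86 in Hep3B-KD. The groups did not overlap, and the log2 fold change was -0.62 ± 0.07 (SE, adjusted p = 0.000222, limma). ACAT2, the cytosolic thiolase, did not pass (log2 fold change 0.05, adjusted p = 0.328, limma), and 52.3% of its exon bases lie in other genes, SOD2 and TCP1 among them.

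Of the 5 enzymes from mevalonate to farnesyl diphosphate 2 were higher, 1 lower and 2 did not pass. PMVK, phosphomevalonate kinase, had 11.2, 12.4 and 12.2 FPKM in Hep3B-Con and 19.1, 19.3 and 18.7 in Hep3B-KD. This was the largest rise of the sterol arm, with a log2 fold change of 0.67 ± 0.04 (SE, adjusted p = 1.90e-05, limma). MVK, the kinase before it, was lower, at 4.87 ± 0.12 FPKM (SD, n = 3) in Hep3B-Con and 4.04 ± 0.095 in Hep3B-KD. The successive mevalonate kinases thus moved in opposite directions. MVD, the decarboxylase that follows, was higher by 0.15 on the log2 scale (adjusted p = 0.0133, limma), a value near the 0.11 of all genes. IDI1, isopentenyl diphosphate isomerase, and FDPS, farnesyl diphosphate synthase, had 0.01 and -0.07 and did not pass. Other annotated genes cover 14.8% of the exon bases of IDI1 and 18.6% of those of FDPS.

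Of the 3 enzymes that make squalene and close it to lanosterol, LSS and FDFT1 were higher. LSS, lanosterol synthase, had 26.3, 25.7 and 26.4 FPKM in Hep3B-Con and 33.9, 34.7 and 34.9 in Hep3B-KD, without overlap (log2 fold change 0.40 ± 0.02 SE, adjusted p = 1.75e-05, limma). FDFT1, squalene synthase, had a log2 fold change of 0.13, near the median of all genes. SQLE, squalene epoxidase and a rate-limiting step of the route, was at 40.2 ± 0.29 FPKM in Hep3B-Con and 38.2 ± 1.9 in Hep3B-KD and did not pass (adjusted p = 0.135, limma).

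All 6 genes of the regulator group passed the test, 4 as higher and 2 as lower, and their median log2 fold change was 0.24. Among all tested genes 60.3% passed, 36.3% as higher and 24.0% as lower. The call of SREBF2, one of the lower genes, was lost in several alternatives given below. INSIG2 (ENSG00000125629, chr2:118088452-118110997, plus strand) encodes one of the anchor proteins that retain SCAP. Its FPKM was 5.53, 5.16 and 5.13 in Hep3B-Con and 15.5, 15.1 and 14.5 in Hep3B-KD. All Hep3B-KD libraries lay well above all Hep3B-Con libraries, with 951 to 972 reads against 337 to 384. The log2 fold change was 1.496 ± 0.05 (SE, adjusted p = 1.21e-06, limma), and 290 tested genes had a larger rise.

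INSIG1, the other anchor protein and itself an SREBP target, changed less, with 11.6, 10.1 and 11.0 FPKM in Hep3B-Con and 12.8, 13.99 and 12.7 in Hep3B-KD. Its groups did not overlap, and the log2 fold change was 0.27 ± 0.06 (SE, adjusted p = 0.00817, limma). The order of the pair was exchanged between the groups. The ratio of INSIG2 to INSIG1 FPKM averaged 0.484 ± 0.022 (SD, n = 3) in Hep3B-Con and 1.14 ± 0.066 in Hep3B-KD, and lay between 0.468 and 0.51 and between 1.08 and 1.21, respectively.

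SREBF1, which encodes the SREBP-1 isoforms that favour fatty acid genes, was lower in Hep3B-KD. Its FPKM was 24.9, 23.1 and 24.7 in Hep3B-Con and 18.3, 18.7 and 19.5 in Hep3B-KD, without overlap (log2 fold change -0.36 ± 0.04 SE, adjusted p = 0.000305, limma). SREBF2, which encodes the SREBP-2 that favours sterol genes, changed by -0.10 (adjusted p = 0.0163, limma), and this call was lost without Hep3B-Con replicate 2 (adjusted p = 0.0527), without Hep3B-KD replicate 1 (0.0549) or 2 (0.0522), without the trend of the variance and after rescaling to TPM, while quantile normalization turned it to 0.02. SCAP was at 14.8 ± 0.47 FPKM (SD, n = 3) in Hep3B-Con and 17.1 ± 0.38 in Hep3B-KD (log2 fold change 0.21). STARD4, a soluble sterol carrier, had 3.75, 4.25 and 3.82 FPKM in Hep3B-Con and 5.49, 5.66 and 5.16 in Hep3B-KD, without overlap (log2 fold change 0.46 ± 0.07 SE, adjusted p = 0.000991, limma).

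The fatty acid arm leaned towards lower values, with a single large exception. Of its 10 enzymes 7 were lower, 2 higher and 1 did not pass, and the median log2 fold change was -0.21, against 0.11 over all tested genes. That was 70% lower and 20% higher, against 24.0% and 36.3% of all tested genes. With quantile normalization 4 were lower and 2 higher, since ACLY, FASN and ELOVL5 no longer passed, and the median was -0.08. The 10 enzymes together summed to 680 ± 2.9 FPKM (SD, n = 3) in Hep3B-Con and to 575 ± 4.0 in Hep3B-KD, of which SCD, FASN and ACLY made up the largest part. The share of all reads that these 10 genes held was 0.452 ± 0.0027% in Hep3B-Con and 0.381 ± 0.0034% in Hep3B-KD.

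**Figure D3:**
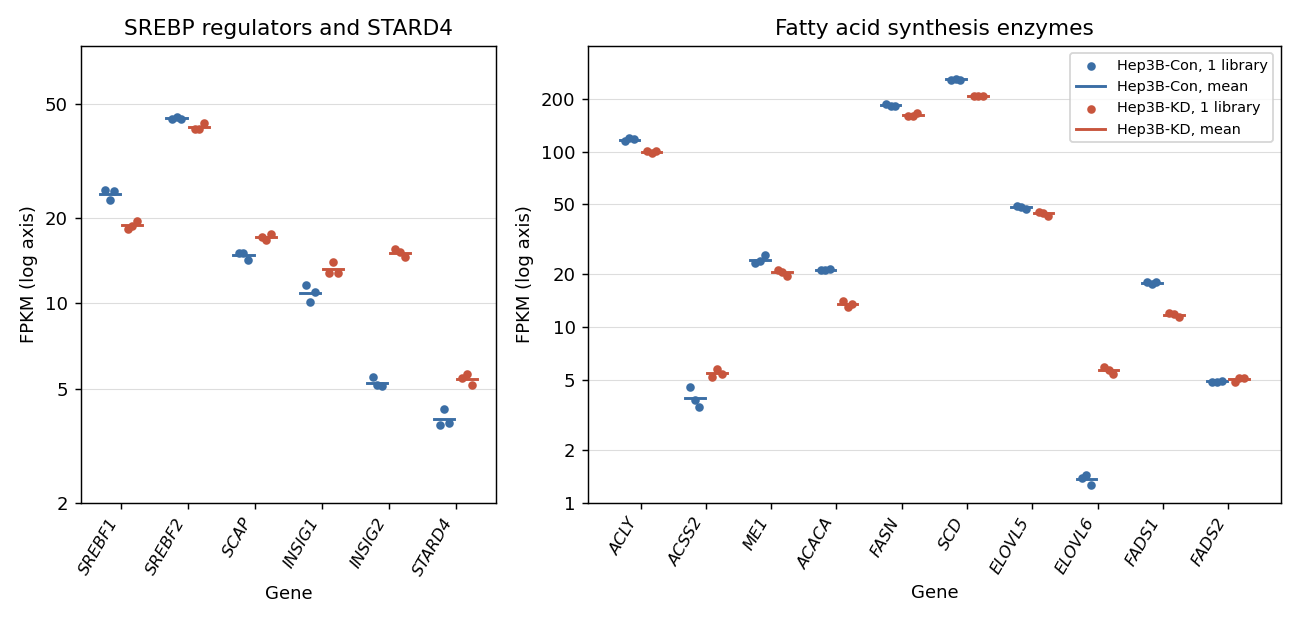
FPKM on a log axis of the 6 regulator and carrier genes (left) and the 10 fatty acid enzymes (right); each point is 1 library (3 Hep3B-Con, 3 Hep3B-KD) and each line a group mean. INSIG2 rises from about 5.27 to 15.04 and ELOVL6 from 1.36 to 5.68, while ACLY, ME1, ACACA, FASN, SCD, ELOVL5 and FADS1 lie lower in Hep3B-KD.

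The enzymes that supply acetyl-CoA and NADPH differed in direction. ACLY, which makes cytosolic acetyl-CoA from citrate, was at 117 ± 1.8 FPKM in Hep3B-Con and 99.6 ± 1.7 in Hep3B-KD (log2 fold change -0.23). ME1, the malic enzyme that yields NADPH, was at 24.2 ± 1.2 and 20.5 ± 0.82 FPKM (log2 fold change -0.24). ACSS2, which makes acetyl-CoA from acetate instead, was higher. Its FPKM was 4.55, 3.86 and 3.49 in Hep3B-Con and 5.21, 5.76 and 5.42 in Hep3B-KD, without overlap (log2 fold change 0.46 ± 0.10 SE, adjusted p = 0.00651, limma).

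Both enzymes of palmitate synthesis were lower. ACACA (ENSG00000278540, chr17:37084988-37406818, minus strand), acetyl-CoA carboxylase alpha and the rate-limiting enzyme, had 21.1, 21.0 and 21.4 FPKM in Hep3B-Con and 14.1, 13.1 and 13.6 in Hep3B-KD. The Hep3B-KD libraries lay below all Hep3B-Con libraries, and the log2 fold change was -0.64 ± 0.03 (SE, adjusted p = 1.00e-05, limma). FASN, fatty acid synthase, had 187, 182 and 181 FPKM in Hep3B-Con and 160, 160 and 166 in Hep3B-KD (log2 fold change -0.18 ± 0.02 SE, adjusted p = 0.000431, limma), with at least 23780 reads per library. ACACB, the mitochondrial isoform of the carboxylase and not a member, was higher, at 0.455 ± 0.048 FPKM in Hep3B-Con and 1.24 ± 0.068 in Hep3B-KD (log2 fold change 1.28, adjusted p = 0.000535, limma). Its Hep3B-Con mean lay below the filter of 0.5 FPKM, so it entered the test only through its Hep3B-KD values. It had 102 to 120 reads in the Hep3B-Con libraries and 271 to 316 in the Hep3B-KD libraries. The ratio of ACACA to ACACB FPKM fell from 46.9 ± 5.1 (SD, n = 3) to 11.0 ± 0.86.

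ELOVL6 (ENSG00000170522, chr4:110045846-110199199, minus strand) elongates palmitate to stearate. Its FPKM was 1.39, 1.43 and 1.27 in Hep3B-Con and 5.94, 5.67 and 5.41 in Hep3B-KD. The Hep3B-KD libraries lay above all Hep3B-Con libraries, with 655 to 688 reads against 154 to 182. The log2 fold change was 1.98 ± 0.07 (SE, adjusted p = 2.27e-06, limma), and 106 tested genes had a larger rise. Over all alternatives it lay between 1.5, with a pseudocount of 1, and 2.05. It was the least abundant fatty acid enzyme in Hep3B-Con and ranked 8 of 10 in Hep3B-KD. ELOVL5, an elongase of polyunsaturated fatty acids, went from 48.2 ± 0.83 to 44.6 ± 1.2 FPKM (log2 fold change -0.11, adjusted p = 0.0105, limma).

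Of the 3 desaturases SCD and FADS1 were lower. SCD, which introduces the double bond of oleate, was the most abundant member, with 257, 260 and 256 FPKM in Hep3B-Con and 208, 206 and 207 in Hep3B-KD. The replicates were tight and did not overlap, and the log2 fold change was -0.31 ± 0.01 (SE, adjusted p = 3.85e-06, limma). FADS1, the delta-5 desaturase of polyunsaturated fatty acids, had 18.1, 17.6 and 17.98 FPKM in Hep3B-Con and 12.1, 11.9 and 11.4 in Hep3B-KD, without overlap (log2 fold change -0.60 ± 0.03 SE, adjusted p = 1.15e-05, limma). FADS2, the delta-6 desaturase and the neighbour of FADS1 on the chromosome, was at 4.92 ± 0.038 and 5.04 ± 0.13 FPKM and did not pass (adjusted p = 0.495, limma). Of their exon bases 5.57% in FADS1 and 4.89% in FADS2 lie in other annotated genes, each other included.

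The sequence before the start of the members was examined because SREBPs bind sterol response elements there. The RefSeq table (GRCh38.p14, windows of 300 bases that lie mostly before each start) held 31 of the 35 members, some with several starts, and a member was counted if any of its windows matched. The element TCACNCCAC, searched on both strands, occurred in 1 of the 31 (3.23%, against 1.52% of tested genes), in SREBF2. A shorter form, TCACNCNA, was then searched, chosen after this count, and occurred in 8 of the 31 (25.8%, against 10.7%). The sites are shown with 8 bases on either side, 5′ to 3′ on the strand of the gene, with the match in capitals. The site of ME1 begins 17 bases after the start, and the other sites lie before the start of their window's transcript.

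MVK, chr12:109573591-109573614: cgcagttcTCACCCCAgggcggga

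FDPS, chr1:155308718-155308741: cgccatgcTCACACGAcggccagc

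MSMO1, first site, chr4:165327505-165327528: cactatccTCACTCCAtccgcgga

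MSMO1, second site, chr4:165327559-165327582: cgcgcgagTCACACGAtgtcggca

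HSD17B7, chr1:162790596-162790619: ggcctatcTCACCCGAcgccgtct

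SREBF2, chr22:41832964-41832987: acgcgccaTCACCCCAcgcaccgc

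ACSS2, chr20:34876366-34876389: ttctgcttTCACTCGAcggcgtca

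ME1, chr6:83431019-83431042: cagcaccgTCACCCCAgcagcatc

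FADS2, chr11:61815975-61815998: tccagtctTCACACGAcgcagggg

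Of these 8 members 1 was higher, 3 were lower and 4 did not pass, and of the other 23 with a window 11 were higher, 9 lower and 3 did not pass. Among all tested genes 36.3% were higher and 24.0% lower. None of the windows of DHCR7, INSIG2 or ELOVL6 held the shorter form. The CCAAT box, bound by NF-Y, occurred on either strand in 22 of the 31 (71% against 43.6% of tested genes), and GGGCGG, bound by Sp1, in 29 (93.5% against 77.6%). The E-box CACGTG occurred in 5 (16.1% against 13%). A match describes these letters in the window and does not show a bound site.

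Genes next to these routes were read from further lists. Beside their counts, 36.3% of all tested genes were higher and 24.0% lower. Of 10 genes of isoprenoid branches 2 were higher, 5 lower and 3 did not pass. Of 12 tested genes of cholesterol handling (of 13 listed) 7 were higher and 3 lower. The higher ones included ABCA1, which exports cholesterol (9.40 ± 0.39 to 15.6 ± 0.24 FPKM), and the esterifying enzyme SOAT1 (18.5 ± 0.47 to 27.7 ± 0.66 FPKM). Of 9 genes of SREBP processing 3 were higher and 6 lower. Among them the site-2 protease gene MBTPS2 was higher (log2 fold change 0.65) and the site-1 protease gene MBTPS1 lower (-0.36). ERLIN1 and ERLIN2, partners in a complex of the endoplasmic reticulum, moved in opposite directions, with log2 fold changes of -0.69 and 0.60.

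Of 13 tested genes of other cytosolic and endoplasmic reticulum fatty acid synthesis (of 18 listed) 10 were higher and 2 lower, and the median log2 fold change was 0.20. That was 76.9% higher and 15.4% lower, against 36.3% and 24.0% of all tested genes. The 10 higher genes include ACACB, which passed the filter only through its Hep3B-KD values. The higher count, its share and the median therefore include a gene that its rise had brought into the test. Of these 10, the dehydratase HACD3 went from 43.8 ± 0.45 to 63.7 ± 1.0 FPKM, the reductase HSD17B12 from 5.07 ± 0.12 to 6.96 ± 0.13 and the lipogenic factor MLXIPL from 6.81 ± 0.62 to 9.54 ± 0.72. The reductase TECR and the dehydratase HACD2 were higher by 0.17 on the log2 scale, near the median of all genes. The 2 lower ones were HACD1, of the same family as HACD2 and HACD3 (log2 fold change -0.87), and the elongase ELOVL1 (-0.17). HACD1 rests on few reads, 88 to 119 in the Hep3B-Con libraries and 39 to 60 in the Hep3B-KD libraries.

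**Figure D4:**
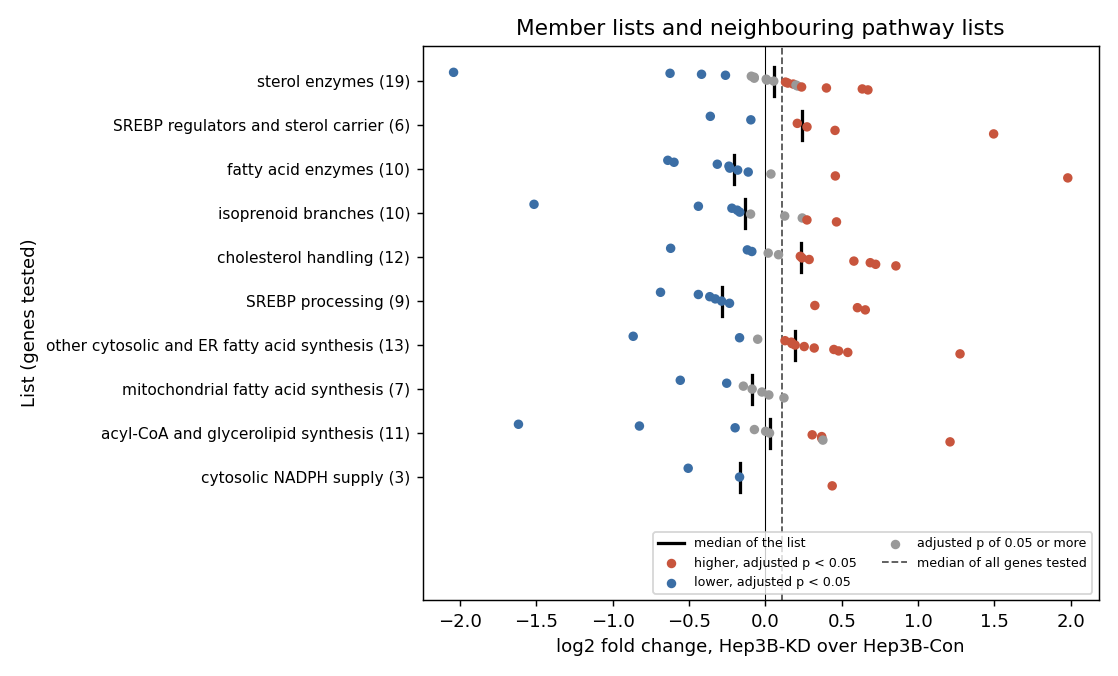
The log2 fold change of each tested gene in the member lists (top 3 lines) and in neighbouring lists, with the number of genes tested in brackets; points are genes coloured by their call at an adjusted p under 0.05, black bars are list medians and the dashed line is the median of all tested genes at 0.11. The list medians run from -0.29 for SREBP processing to 0.24 for the regulators.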

How the data were processed

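The authors deposited FPKM values of 29908 Ensembl genes, 1 column per library and 0 other columns of values. The submitters' processing notes name TopHat2 2.0.12, Bowtie2 2.0.6 and GRCh37, whereas the FPKM values gave whole reads (within 0.01 of a read, 100% of values) with exon lengths of GENCODE release 29 (GRCh38), so the build of the counting is not settled. Strand handling in the counting was not given in the sources used here. Coordinates are those of GRCh38. Reads behind each value limit its precision, and read counts cover counting error only.

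Values were tested as log2(FPKM + 0.1), which understates changes of low genes, for 14147 genes whose mean was 0.5 or more, with limma 3.58.1 (lmFit, eBayes with trend; R 4.3.3) and Benjamini-Hochberg adjustment over all of them. Of repeated symbols (382 rows) the row with the highest mean was used. The fit was tested on simulated data with 200 changed genes, far fewer than the 8529 called here. It recovered 93% of them at a dispersion of 0.01 and 44% at a dispersion of 0.1. Groups came from the sample records. Alternatives were other filters, pseudocounts, scalings, variance models, voom on recovered reads, a replicate block, all rows of repeated symbols, and each library left out. Members that passed a fold change of 2 were named with all values, then the members with the largest changes of each group. Some further members, HMGCS1 and FASN among them, were also given with all values. LBR, ACACB and the genes of the neighbouring lists were taken from the lists. The members and lists were chosen with earlier results of these data known. Exon overlaps and 50-base stretches shared with other genes came from GENCODE release 29. Tables were handled in Python 3.11.15 with pandas 2.3.3, and figures drawn with matplotlib 3.10.9.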

Additional observations from a re-analysis of the deposited data

How the results depend on the processing

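The counts of members, 13 higher and 13 lower, ranged from 10 to 14 and from 9 to 16 over the alternatives. DAGLA remained lower and past the threshold in all of them, at -1.09 to -0.87. The medians of the arms moved with the scaling. The sterol median of 0.0549 became 0.0819 after rescaling to TPM, -0.0287 with centring on the median log ratio and 0.0743 with quantile normalization, and ranged from 0.0157 (without Hep3B-Con replicate 2) to 0.084 (without Hep3B-KD replicate 1) with single libraries left out. The fatty acid median of -0.207 became -0.18, -0.291 and -0.0792 in the same order, and ranged from -0.207 to -0.194. Centring turned the log2 fold changes of ACAT2 to -0.0287, IDI1 to -0.074, NSDHL to -0.0781 and FADS2 to -0.0473. Quantile normalization turned SQLE to 0.0397, CYP51A1 to -0.033, SREBF2 to 0.0175 and FADS2 to -0.111. With single libraries left out IDI1 ranged from -0.0139 to 0.031 and NSDHL from -0.0544 to 0.0397. Of these only SREBF2 had passed the test. Without Hep3B-KD replicate 3, FDPS (adjusted p = 0.0497, limma), SQLE (0.0184) and MSMO1 (0.0132) passed as lower, and without Hep3B-KD replicate 2 HSD17B7 passed as higher (0.0303). The causes of these shifts were not tested.

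With the replicate number as a block 13 members were higher and 13 lower, with arm medians of 0.0549 and -0.207 and a DAGLA log2 fold change of -0.991, and no member changed its call. The numbers were labels without a stated pairing: deviations of libraries with the same number correlated at 0.0032, -0.0803 and -0.00029 over genes. Depth limited CYP51A1 most, with fewer than 100 reads in every library.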

Other observations

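Of 13 genes of acyl-CoA and glycerolipid synthesis 11 were tested, of which 4 were higher, 3 lower and 4 did not pass. These shares, 36.4% higher and 27.3% lower, were near the 36.3% and 24.0% of all tested genes. ACSL1, a long-chain acyl-CoA synthetase of liver, had 5.43, 5.72 and 5.82 FPKM in Hep3B-Con and 1.74, 1.91 and 1.69 in Hep3B-KD (log2 fold change -1.62 ± 0.07 SE, adjusted p = 3.88e-06, limma). ACSL3, a synthetase tied to lipid droplets, was also lower, at 46.8 ± 2.2 FPKM (SD, n = 3) in Hep3B-Con and 26.3 ± 0.24 in Hep3B-KD. ACSL4, which prefers arachidonate, was at 75.8 ± 1.4 and 75.9 ± 1.6 FPKM. LPIN1, a phosphatidate phosphatase, was higher, with 0.581, 0.572 and 0.567 FPKM in Hep3B-Con and 1.62, 1.42 and 1.35 in Hep3B-KD (log2 fold change 1.21, adjusted p = 0.000307, limma).

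Of 7 genes of the separate mitochondrial fatty acid synthesis 0 were higher and 2 lower by the adjusted p of limma. Among all tested genes 36.3% were higher and 24.0% lower. The lower ones were HSD17B8 (log2 fold change -0.56) and MECR (-0.25), and the other 5 did not pass.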
